A study of Mus musculus with 6 samples.

Results

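The amino acid response was examined through 42 genes: the transcription factors and effectors of the ATF4-CHOP axis (11), enzymes of serine, asparagine, proline and one-carbon synthesis (9), plasma membrane amino acid transporters (8) and cytosolic aminoacyl-tRNA synthetases (14). The genes were taken by symbol from the deposited table of 24421 genes, and all 42 were found there and had enough counts to be tested. The libraries came from Ube3d-KO cells, in which the gene of the E3 ubiquitin ligase UBE3D was knocked out, and from WT cells of the same line, with 3 libraries of each. All cells were 3T3-L1, a mouse embryonic fibroblast line used as a preadipocyte model, in growing, undifferentiated culture in high-glucose medium with serum. The sample titles call the libraries of each genotype biological replicates. How the knockout was made, whether its libraries came from a single clone and how separate the cultures were are not stated in the labels. The p-values therefore measure the spread between these libraries only.

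When cells lack an amino acid, uncharged tRNA activates the kinase GCN2 (Eif2ak4), and when proteins misfold in the endoplasmic reticulum the kinase PERK (Eif2ak3) is activated. Both phosphorylate the initiation factor eIF2, which slows translation in general but favours that of ATF4. ATF4 then drives genes for amino acid synthesis, import and tRNA charging, often as a dimer with a C/EBP protein at a composite C/EBP-ATF response element. ATF4 is controlled largely by translation, so that its mRNA level is only a part of its regulation, and protein was not measured here.

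The libraries held 23767181 to 29389480 gene counts. Levels are given in CPM (counts divided by the library total and its TMM factor, which was 0.982 to 1.01), as single libraries in the order of their replicate numbers or as mean ± SD with n = 3, and a positive fold change means higher in the knockout. The gene of UBE3D, listed under its older symbol Ube2cbp, held 56, 43 and 53 counts in the knockout libraries and 145, 229 and 173 in the wild-type libraries, so every knockout library was below every wild-type library (log2 −1.86, SE 0.15, adjusted p = 6.58e-18, edgeR quasi-likelihood test). All 10 fibroblast markers examined were expressed, with a summed level of 12076 to 12351 CPM in the knockout libraries and 14865 to 15252 CPM in the wild-type libraries. Of these markers 7 were lower, 2 were higher and 1 did not pass, from the collagen gene Col1a1 (log2 −1.18, SE 0.03, adjusted p = 1.17e-45) to the proteoglycan gene Dcn (log2 2.48, SE 0.04, adjusted p = 9.85e-59). The ribosomal precursor gene Rn45s, left over after depletion, took 9.68% to 10.2% of counts in the knockout libraries and 7.28% to 8.91% in the wild-type libraries. Leaving it out changed the call of none of the 42 genes. The part of the marker differences in the results was not tested. Of 12 markers of leukocytes, macrophages, epithelium, endothelium and mature adipocytes, Adgre1, Epcam, Krt18 and Lep had 0 counts and all but the lysosomal macrophage marker Cd68 were too low to test. Cd68 was at 3.81 ± 0.773 CPM in the knockout libraries and 2.30 ± 0.746 CPM in the wild-type libraries, and the whole list summed to 3.62 to 5.20 CPM in the knockout libraries and 2.66 to 3.70 CPM in the wild-type libraries. Its part in the results below was not tested. In bulk RNA, less RNA per cell and fewer cells with a given level cannot be told apart.

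Over the whole table, 61.4% of 12947 tested genes passed an adjusted p under 0.05, 30.3% higher and 31.2% lower in the knockout. Against this background, 12 of the 42 genes were higher, 20 were lower and 10 did not pass. The changes were small. None of the 20 that fell did so by as much as 1.5-fold, where 6.29% of all tested genes fell by at least that much. Those that rose by at least 1.5-fold were Slc7a3 and Vldlr, against 9.52% of all tested genes. The median log2 fold change was −0.08 over the 42 genes and 0.004 over all tested genes. The direction of change differed between the groups of genes, with the transfer RNA synthetases mostly lower (10 of 14) and the other groups divided.

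**Figure D1:**
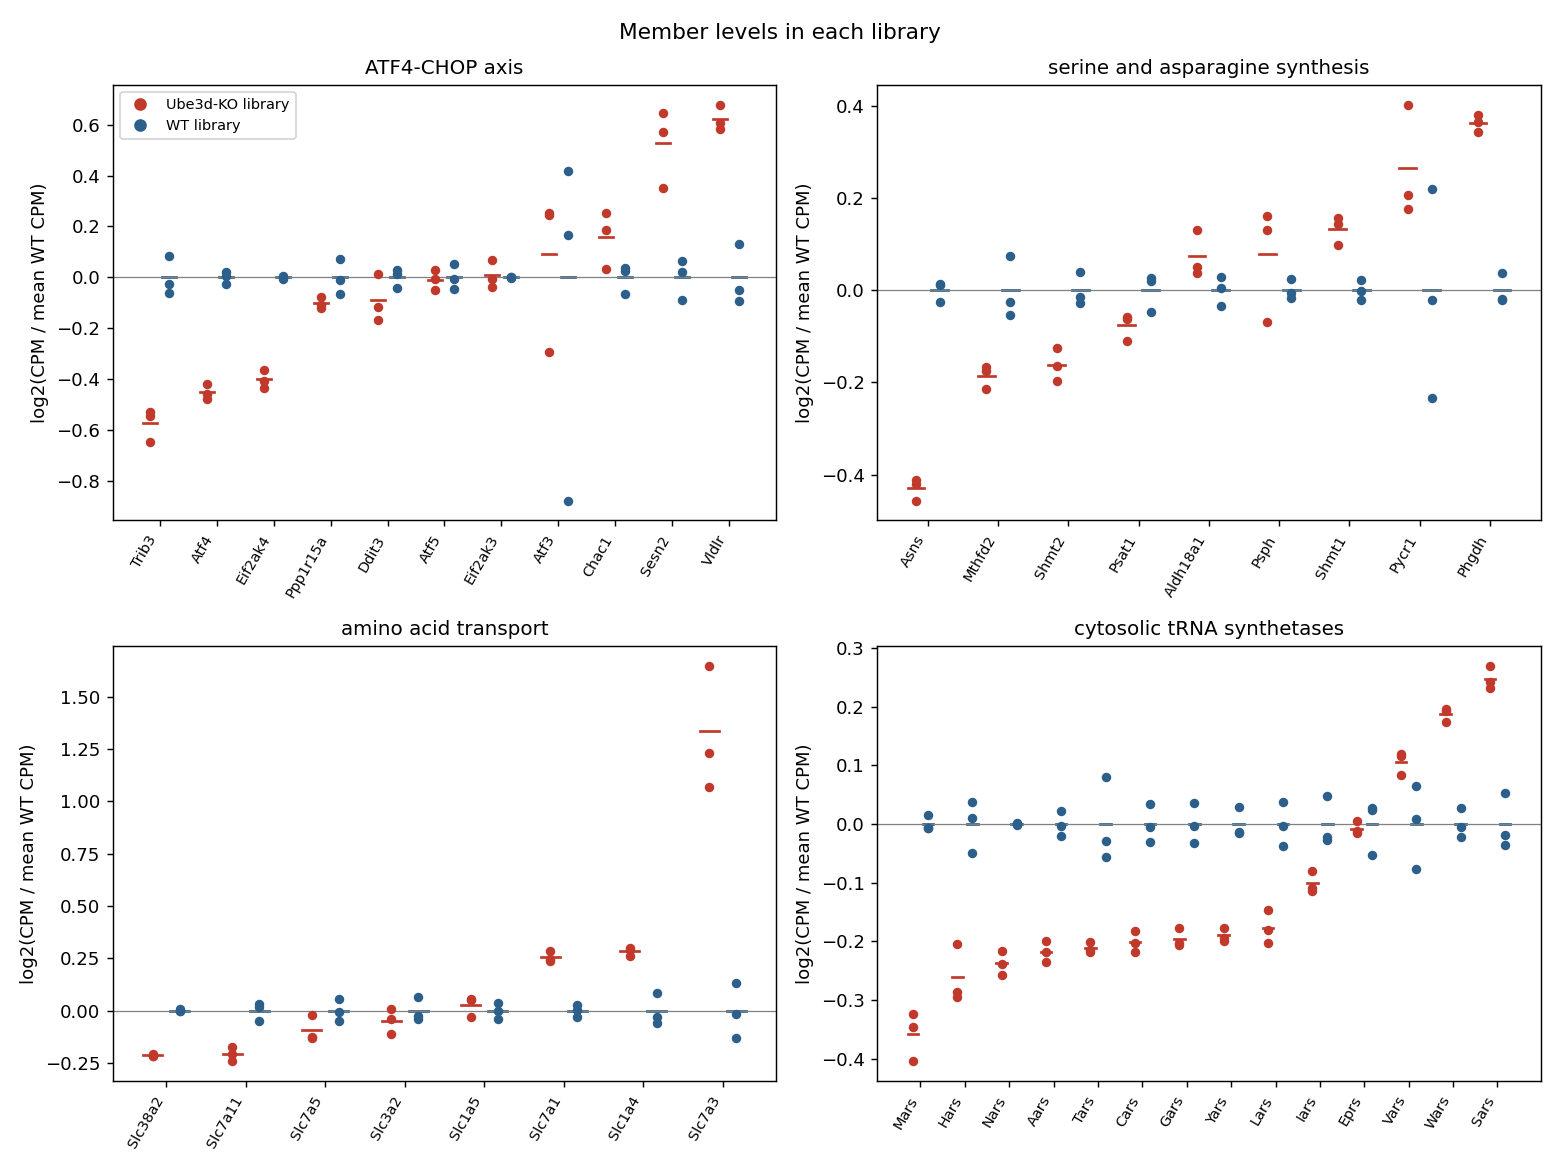
Level of each gene in each library as log2 of CPM over the mean wild-type CPM, with Ube3d-KO libraries in red to the left of WT libraries in blue, and short bars at the group means. Of the synthetases, 10 have all knockout libraries below all wild-type libraries, while Slc7a3 stands highest of all at log2 1.33.

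Promoter sequences are shown for the genes that both changed and carried the letters of the C/EBP-ATF response element, the sequence that ATF4 is known to bind with a C/EBP partner. The element was searched as TGATGNAA on both strands, from 250 bases before to 50 bases after the start, in the RefSeq promoter table (GRCm38.p6), which held an entry for 33 of the 42 genes. Of these 33 genes, 13 (39.4%) held at least 1 match, against 4.51% of all 27025 genes in the table. The genes were listed as parts of the ATF4 response, so a higher share is built into the choice and says nothing of the knockout. These are matches of letters, not measured binding sites. The 6 with the largest fold changes are printed 5′ to 3′ on the strand of the gene, with the matches in capitals, so that a match on the reverse strand reads TTNCATCA.

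Vldlr, chr19:27216770-27217069, plus strand: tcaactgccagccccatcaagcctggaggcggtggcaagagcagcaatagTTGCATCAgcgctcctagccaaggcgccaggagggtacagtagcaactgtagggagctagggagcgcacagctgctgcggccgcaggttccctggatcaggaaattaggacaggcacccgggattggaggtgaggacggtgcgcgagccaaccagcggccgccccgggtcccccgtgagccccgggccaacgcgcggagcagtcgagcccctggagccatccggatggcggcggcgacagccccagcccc
Trib3, chr2:152344011-152344310, minus strand: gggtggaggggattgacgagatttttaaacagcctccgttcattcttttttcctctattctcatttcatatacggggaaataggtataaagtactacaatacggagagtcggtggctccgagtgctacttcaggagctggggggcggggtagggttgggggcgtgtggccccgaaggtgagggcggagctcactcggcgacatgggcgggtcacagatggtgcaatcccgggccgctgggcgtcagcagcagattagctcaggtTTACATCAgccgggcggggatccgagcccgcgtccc
Asns, chr6:7693160-7693459, minus strand: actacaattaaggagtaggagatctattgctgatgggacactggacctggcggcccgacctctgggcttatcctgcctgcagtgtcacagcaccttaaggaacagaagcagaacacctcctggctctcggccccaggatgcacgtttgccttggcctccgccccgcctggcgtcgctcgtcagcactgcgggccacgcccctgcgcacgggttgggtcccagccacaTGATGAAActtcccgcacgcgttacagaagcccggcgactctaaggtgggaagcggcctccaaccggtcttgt
Slc1a4, chr11:20332664-20332963, minus strand: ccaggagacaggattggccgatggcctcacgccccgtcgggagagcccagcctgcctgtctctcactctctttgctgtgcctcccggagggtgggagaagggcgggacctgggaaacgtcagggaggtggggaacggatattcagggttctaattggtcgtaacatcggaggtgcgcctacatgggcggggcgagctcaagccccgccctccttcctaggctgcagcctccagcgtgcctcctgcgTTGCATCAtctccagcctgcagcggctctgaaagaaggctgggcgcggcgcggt
Pycr1, chr11:120643699-120643998, minus strand: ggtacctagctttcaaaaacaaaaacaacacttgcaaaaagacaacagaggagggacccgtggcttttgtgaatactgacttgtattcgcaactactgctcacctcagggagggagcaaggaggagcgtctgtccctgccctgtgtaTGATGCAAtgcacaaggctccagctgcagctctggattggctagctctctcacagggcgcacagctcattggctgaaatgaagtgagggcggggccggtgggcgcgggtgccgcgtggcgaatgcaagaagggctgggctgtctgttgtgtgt
Aars, chr8:111033592-111033891, plus strand: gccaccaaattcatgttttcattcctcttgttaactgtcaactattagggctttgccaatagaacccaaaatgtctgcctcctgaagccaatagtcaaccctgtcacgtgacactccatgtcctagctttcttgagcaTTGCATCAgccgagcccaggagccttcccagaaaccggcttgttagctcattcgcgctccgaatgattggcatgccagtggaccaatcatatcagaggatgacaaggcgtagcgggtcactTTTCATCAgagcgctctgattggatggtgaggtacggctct

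The matches did not share a position or a direction. That of Asns, whose human promoter is the classical amino acid response element, began 23 bases before the start on the forward strand. The match of Vldlr lay 200 bases before the start and that of Trib3 in its first exon, 14 bases after the start, both on the reverse strand. Aars held 2 matches, 112 bases before and 9 bases after the start. The other genes with a match were Atf3, Chac1, Slc7a11, Gars, Iars, Tars and Yars, of which Slc7a11 held 2, at 66 and 47 bases before the start. Among the 13 genes with a match 3 were higher, 8 were lower and 2 did not pass (median log2 −0.19). Among the 20 with a promoter entry but no match 6 were higher, 7 were lower and 7 did not pass (median log2 −0.03). The shares over all tested genes were 30.3% higher and 31.2% lower. Synthetases made up 5 of the 13 genes with a match and 3 of the 20 without, so the sets also differ in their make-up. All 5 synthetase genes with a match were lower in the knockout, while Vldlr, Slc1a4 and Pycr1 carried the same element and were higher. Of the 3 synthetase genes with an entry but no match, 1 was higher, 1 was lower and 1 did not pass. Cars, Hars, Lars, Nars, Vars and Wars had no entry and were not searched, and 10 of all 14 synthetases were lower. A link between the element and the direction of change was not tested.

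**Figure D2:**
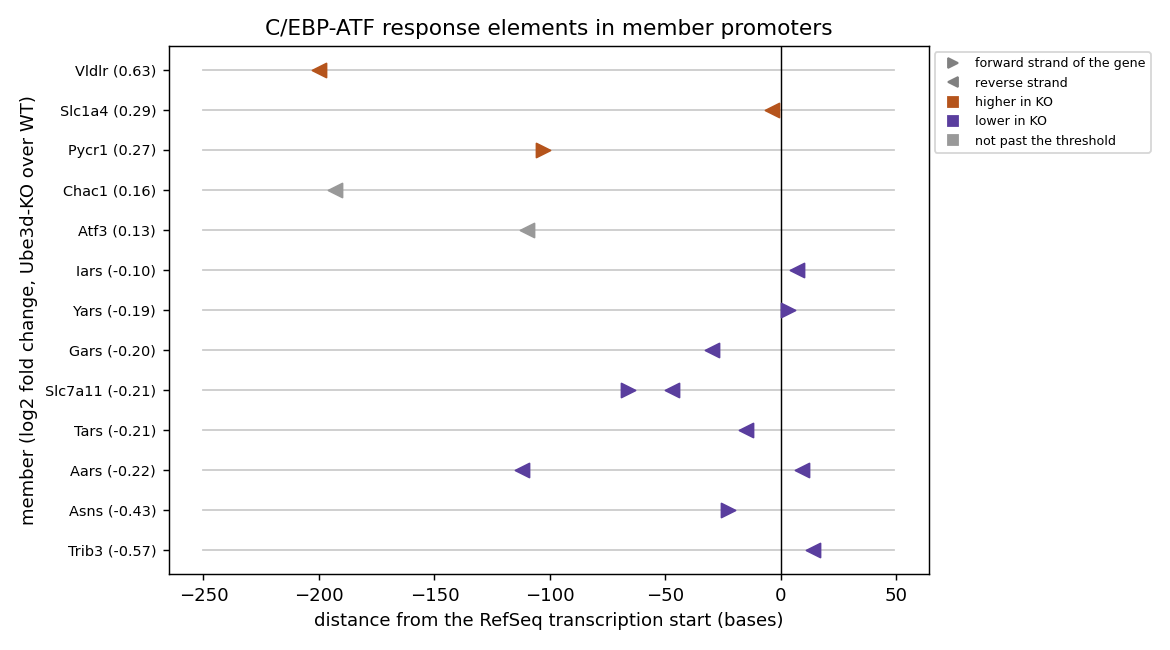
Position of each C/EBP-ATF response element match relative to the RefSeq transcription start (bases) in the 13 promoters that hold one, ordered by log2 fold change with the highest at the top. Arrowheads give the strand and colours the call, with the 3 higher genes above the 8 lower ones.

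Of the regulators of the response, Atf4 and Eif2ak4 were lower, while Eif2ak3 and Ppp1r15a did not pass. Atf4, the transcription factor at its centre, stood at 149.7, 156 and 152 CPM in the knockout libraries, against 212, 205 and 209 CPM in the wild-type libraries. The groups did not overlap, and Atf4 was 1.37-fold lower in the knockout (log2 −0.45, SE 0.03, adjusted p = 1.27e-21). Eif2ak4, the GCN2 kinase that senses uncharged tRNA, was at 48.3, 47.3 and 49.8 CPM in the knockout libraries, against 64.2, 63.6 and 64.1 CPM in the wild-type libraries. It too was lower in every knockout library (log2 −0.40, SE 0.04, adjusted p = 1.06e-12), and the median over tested genes of its chromosome, 2, was −0.24. Eif2ak3, the PERK kinase of the endoplasmic reticulum, did not pass, with 28.3 ± 1.08 CPM in the knockout libraries and 28.1 ± 0.0518 CPM in the wild-type libraries (log2 0.01, SE 0.06, adjusted p = 0.894). Ppp1r15a encodes GADD34, the phosphatase subunit that restores eIF2 and is itself induced by the response. It was at 13.5 ± 0.220 CPM in the knockout libraries and 14.5 ± 0.700 CPM in the wild-type libraries and did not pass, although each knockout library lay below each wild-type library (log2 −0.10, SE 0.08, adjusted p = 0.270).

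Among the stress-induced factors that act with or after ATF4, most did not pass. Atf5, a factor translated in the same way as ATF4, was at 114 ± 3.11 CPM in the knockout libraries and 115 ± 3.87 CPM in the wild-type libraries (log2 −0.01, SE 0.03, adjusted p = 0.839). Ddit3, which encodes the pro-apoptotic factor CHOP, was at 15.9 ± 1.04 CPM in the knockout libraries and 16.9 ± 0.445 CPM in the wild-type libraries (log2 −0.09, SE 0.07, adjusted p = 0.271). The exons of Ddit3 overlap those of Mars on the other strand, and those of Atf5 overlap Nup62. Exon overlaps were present for 6 of the 42 genes. The remaining ones were Ppp1r15a with Tulp2, Shmt2 with Ndufa4l2 and Yars with C77080, each on the other strand. The strand setting of the counting is not stated in the labels or headers. Atf3, a factor induced by many stresses, held 18, 28 and 29 counts in the knockout libraries and 27, 14 and 26 in the wild-type libraries, too few to show a difference of this size (log2 0.13, SE 0.30, adjusted p = 0.721).

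The effectors went in both directions. Trib3, a pseudokinase that restrains ATF4 and CHOP, stood at 12.1, 13.1 and 12.95 CPM in the knockout libraries, against 18.6, 18.1 and 20.02 CPM in the wild-type libraries. This was the largest fall among the 42 genes, with no overlap between the groups (log2 −0.57, SE 0.07, adjusted p = 5.68e-10), and the gene lies on chromosome 2 as well. Chac1, which encodes a glutathione-degrading enzyme induced by CHOP and ATF4, had 14.9, 16.6 and 17.4 CPM in the knockout libraries, against 13.9, 14.9 and 14.8 CPM in the wild-type libraries, with overlapping groups (log2 0.16, SE 0.08, adjusted p = 0.0606). It passed with a positive sign without knockout replicate 1 (adjusted p = 0.0205) and with a filter at 1 CPM (adjusted p = 0.0482), in a range of 0.0205 to 0.290 over 13 alternatives. Sesn2, a leucine-binding inhibitor of mTORC1 that p53 and ATF4 both induce, was at 13.7, 16.8 and 16.01 CPM in the knockout libraries, against 10.9, 11.2 and 10.1 CPM in the wild-type libraries. Every knockout library was above every wild-type library (log2 0.53, SE 0.08, adjusted p = 9.17e-08). Vldlr, a lipoprotein receptor gene that ATF4 is known to induce in endoplasmic reticulum stress, was at 18.2, 19.1 and 17.9 CPM in the knockout libraries, against 13.1, 11.5 and 11.2 CPM in the wild-type libraries. It was the second largest rise among the 42 genes, 1.55-fold, again without overlap (log2 0.63, SE 0.08, adjusted p = 7.78e-11). In all, 2 of the 11 genes of the axis were higher, 3 were lower and 6 did not pass. Thus 45.5% of the axis passed, fewer than the 61.4% of all tested genes.

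Of the 9 synthesis genes, 4 were higher, 4 were lower and 1 did not pass, so that 88.9% passed, against 61.4% of all tested genes. Asns makes asparagine from aspartate and glutamine and is the reference target of the amino acid response. Its level was 141, 141 and 137 CPM in the knockout libraries, against 190.0, 185 and 189.6 CPM in the wild-type libraries. No libraries overlapped, and the gene was 1.35-fold lower in the knockout (log2 −0.43, SE 0.03, adjusted p = 1.73e-20). Phgdh, which catalyses the first step of serine synthesis from a glycolytic intermediate, was at 260.3, 264 and 267 CPM in the knockout libraries, against 211, 202 and 203 CPM in the wild-type libraries. All knockout libraries were higher (log2 0.36, SE 0.03, adjusted p = 1.80e-17), and the median over tested genes of its chromosome, 3, was 0.30. Psat1, the aminotransferase of the second step, was at 437, 453 and 451 CPM in the knockout libraries, against 480.1, 456 and 478 CPM in the wild-type libraries, slightly lower in every knockout library (log2 −0.08, SE 0.03, adjusted p = 0.0229). Psph, the phosphatase of the last step, was at 26.3 ± 2.22 CPM in the knockout libraries and 24.96 ± 0.379 CPM in the wild-type libraries and did not pass (log2 0.08, SE 0.06, adjusted p = 0.286).

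Serine is turned into glycine and one-carbon units in the cytosol by SHMT1 and in mitochondria by SHMT2, after which MTHFD2 carries the mitochondrial units on. The cytosolic gene Shmt1 was at 59.3, 61.2 and 61.7 CPM in the knockout libraries, against 56.3, 54.6 and 55.3 CPM in the wild-type libraries, higher in every knockout library (log2 0.13, SE 0.04, adjusted p = 0.00519). The mitochondrial gene Shmt2 went the other way, with 136, 139 and 143 CPM in the knockout libraries, against 154, 153 and 160.0 CPM in the wild-type libraries (log2 −0.16, SE 0.03, adjusted p = 9.79e-06). Mthfd2 was at 77.8, 75.3 and 77.3 CPM in the knockout libraries, against 85.8, 84.2 and 92.02 CPM in the wild-type libraries and was lower as well (log2 −0.19, SE 0.04, adjusted p = 3.30e-05). Thus the libraries of the genotypes stood apart for all 3 genes, with the cytosolic one higher and the mitochondrial ones lower. Of all tested genes, 31.8% had every knockout library above every wild-type library, and 32.5% had every one below. The division did not hold for every other folate gene. Mitochondrial Mthfd2l, on chromosome 5, was higher (log2 0.28, adjusted p = 6.78e-04), while mitochondrial Mthfd1l (log2 −0.10) and Aldh1l2 (log2 −0.41) were lower. Cytosolic Mthfd1 did not pass (log2 0.05, adjusted p = 0.138). The difference between Shmt1, Shmt2 and Mthfd2 was not tested.

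The listed proline synthesis genes were called slightly higher, but neither call held in every alternative. Aldh18a1, the enzyme of the first step from glutamate, was at 131 ± 4.63 CPM in the knockout libraries and 125 ± 2.76 CPM in the wild-type libraries (log2 0.07, SE 0.03, adjusted p = 0.0481). Its call was lost without knockout replicate 2 (adjusted p = 0.0629), knockout replicate 3 (log2 0.04, adjusted p = 0.348), wild-type replicate 1 (adjusted p = 0.0878) or wild-type replicate 3 (adjusted p = 0.173). It was also lost with the replicate number as a block (adjusted p = 0.0696), with DESeq2 (adjusted p = 0.0930), with limma-voom (adjusted p = 0.0550) and with no count filter (adjusted p = 0.121), in a range of 0.0108 to 0.348 over 14 alternatives. Pycr1, the reductase of the last step, had 8.73, 8.91 and 10.2 CPM in the knockout libraries, against 8.99, 7.61 and 6.58 CPM in the wild-type libraries, with overlapping groups (log2 0.27, SE 0.10, adjusted p = 0.0178). This call was lost without knockout replicate 3 (log2 0.20, adjusted p = 0.151), without wild-type replicate 3 (log2 0.17, adjusted p = 0.185) and with DESeq2 (adjusted p = 0.0688), in a range of 0.00287 to 0.185 over 14 alternatives. The small fall of Psat1 was likewise lost without knockout replicate 1 (adjusted p = 0.141), without wild-type replicate 1 (adjusted p = 0.0632) and with chromosomes 2, 3, 5 and 12 left out (adjusted p = 0.115), in a range of 0.00236 to 0.141 over 14 alternatives.

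Transporters of small neutral amino acids changed in opposite directions. Slc38a2, the sodium-coupled SNAT2 transporter that is induced when amino acids are short, was at 451, 454 and 449.9 CPM in the knockout libraries, against 526, 523 and 523 CPM in the wild-type libraries. The replicates lay close together and the knockout was lower in each (log2 −0.21, SE 0.03, adjusted p = 1.39e-09). Slc1a4, the ASCT1 carrier of alanine, serine and cysteine, had 53.9, 55.1 and 55.4 CPM in the knockout libraries, against 47.8, 43.3 and 44.05 CPM in the wild-type libraries and was higher in each (log2 0.29, SE 0.05, adjusted p = 1.86e-07). Slc1a5, the ASCT2 glutamine exchanger, did not pass, with 71.7 ± 2.46 CPM in the knockout libraries and 70.5 ± 1.85 CPM in the wild-type libraries (log2 0.02, SE 0.04, adjusted p = 0.617).

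The listed cationic transporters, Slc7a1 and Slc7a3, were higher. Slc7a1, the main arginine and lysine carrier CAT1, stood at 128, 128 and 132 CPM in the knockout libraries, against 109, 106 and 110.4 CPM in the wild-type libraries, without overlap (log2 0.26, SE 0.03, adjusted p = 5.66e-10). The median of its chromosome, 5, was 0.19. Slc7a3, the related carrier CAT3, held only 20, 24 and 33 counts in the knockout libraries and 8, 11 and 11 in the wild-type libraries. All knockout counts were above all wild-type counts, and its fold change was the largest of the 42 genes but also the least precise (log2 1.33, SE 0.35, adjusted p = 6.75e-04). The level remained near 1 CPM in the knockout.

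Of the listed light and heavy chains of the 4F2hc exchangers, Slc7a11 and Slc7a5 were lower and Slc3a2 did not pass. Slc7a11, the xCT light chain that imports cystine for glutathione, was at 26.4, 27.7 and 27.01 CPM in the knockout libraries, against 31.9, 30.2 and 31.6 CPM in the wild-type libraries. It was lower in every knockout library (log2 −0.21, SE 0.06, adjusted p = 0.00122), whereas the median of its chromosome, 3, was 0.30. Slc7a5, the LAT1 light chain that imports leucine and other large neutral amino acids, was at 90.5 ± 3.90 CPM in the knockout libraries and 96.4 ± 3.68 CPM in the wild-type libraries, with overlapping groups (log2 −0.09, SE 0.04, adjusted p = 0.0337). This call was lost without knockout replicate 1 (adjusted p = 0.140), knockout replicate 3 (adjusted p = 0.136) or wild-type replicate 1 (adjusted p = 0.158). It was also lost with DESeq2 (adjusted p = 0.0791), with a filter at 1 CPM (adjusted p = 0.0515) and with chromosomes 2, 3, 5 and 12 left out (adjusted p = 0.120), in a range of 0.00768 to 0.158 over 14 alternatives. Slc3a2, the shared heavy chain, was at 117 ± 4.84 CPM in the knockout libraries and 121 ± 4.84 CPM in the wild-type libraries and did not pass (log2 −0.05, SE 0.04, adjusted p = 0.239). Among the light chains outside the 42 genes, Slc7a6 was lower (log2 −0.35, SE 0.04, adjusted p = 1.10e-11), and Slc7a7, which held 34, 27 and 25 counts in the knockout libraries and 12, 18 and 5 in the wild-type libraries, was higher (log2 1.27, SE 0.34, adjusted p = 8.58e-04). Both were named after their values were seen, and the exons of Slc7a7 overlap Oxa1l on the other strand. Of the 8 transporters, 3 were higher, 3 were lower and 2 did not pass, so that 75% passed, against 61.4% of all tested genes.

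The cytosolic tRNA synthetases join each amino acid to its tRNA and supply translation directly. Of the 14 listed, 10 were lower, 3 were higher and 1 did not pass (median log2 −0.19), against 31.2% lower and 30.3% higher among all tested genes. The falls lay between 0.10 and 0.36 on the log2 scale, and in all 10 genes every knockout library lay below every wild-type library, an arrangement seen in 32.5% of all tested genes. The list was chosen with earlier results of these data known, so the count is a description.

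The methionyl synthetase gene Mars fell most, with 70.9, 71.9 and 68.01 CPM in the knockout libraries, against 90.98, 89.6 and 89.6 CPM in the wild-type libraries (log2 −0.36, SE 0.04, adjusted p = 8.15e-13). Its exons overlap Ddit3 on the other strand. The histidyl synthetase gene Hars was at 89.6, 88.97 and 94.7 CPM in the knockout libraries, against 110.0, 106 and 112 CPM in the wild-type libraries, the next largest fall (log2 −0.26, SE 0.04, adjusted p = 4.13e-09). For the asparaginyl synthetase gene Nars, whose amino acid is the product of ASNS, the values were 285, 281 and 277 CPM in the knockout libraries, against 331, 331 and 332 CPM in the wild-type libraries. The wild-type libraries of Nars were nearly equal and the knockout libraries all lower (log2 −0.24, SE 0.03, adjusted p = 1.04e-10). The alanyl synthetase gene Aars, stood at 373, 369 and 378 CPM in the knockout libraries, against 442, 429 and 433 CPM in the wild-type libraries (log2 −0.22, SE 0.03, adjusted p = 1.21e-09). The threonyl, cysteinyl, glycyl, tyrosyl and leucyl synthetase genes lay close to each other, with log2 −0.21 for Tars, −0.20 for Cars, −0.20 for Gars, −0.19 for Yars and −0.18 for Lars, each with an SE of 0.03 or 0.04. The isoleucyl synthetase gene Iars fell least, at 235 ± 2.94 CPM in the knockout libraries and 252 ± 7.44 CPM in the wild-type libraries (log2 −0.10, SE 0.03, adjusted p = 0.00267).

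The exceptions were Sars, Wars, Vars and Eprs. Sars, which charges serine, was at 244, 242 and 249 CPM in the knockout libraries, against 201, 204 and 214 CPM in the wild-type libraries. It was higher in every knockout library (log2 0.25, SE 0.03, adjusted p = 7.15e-11), by less than the median of 0.30 of its chromosome, 3. Wars, which charges tryptophan and is also known as an interferon-induced gene, was at 77.5, 78.5 and 78.7 CPM in the knockout libraries, against 69.99, 68.5 and 67.6 CPM in the wild-type libraries and likewise higher (log2 0.19, SE 0.04, adjusted p = 2.75e-05), with a median of 0.19 on its chromosome, 12. Vars, which charges valine, was at 153 ± 2.07 CPM in the knockout libraries and 142 ± 6.89 CPM in the wild-type libraries (log2 0.11, SE 0.03, adjusted p = 0.00315), and this rise was lost without wild-type replicate 3 (log2 0.07, adjusted p = 0.0584), in a range of 0.000483 to 0.0584 over 14 alternatives. The bifunctional glutamyl-prolyl synthetase gene Eprs did not pass, with 358 ± 2.68 CPM in the knockout libraries and 360.2 ± 11.4 CPM in the wild-type libraries (log2 −0.01, SE 0.03, adjusted p = 0.845).

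**Figure D3:**
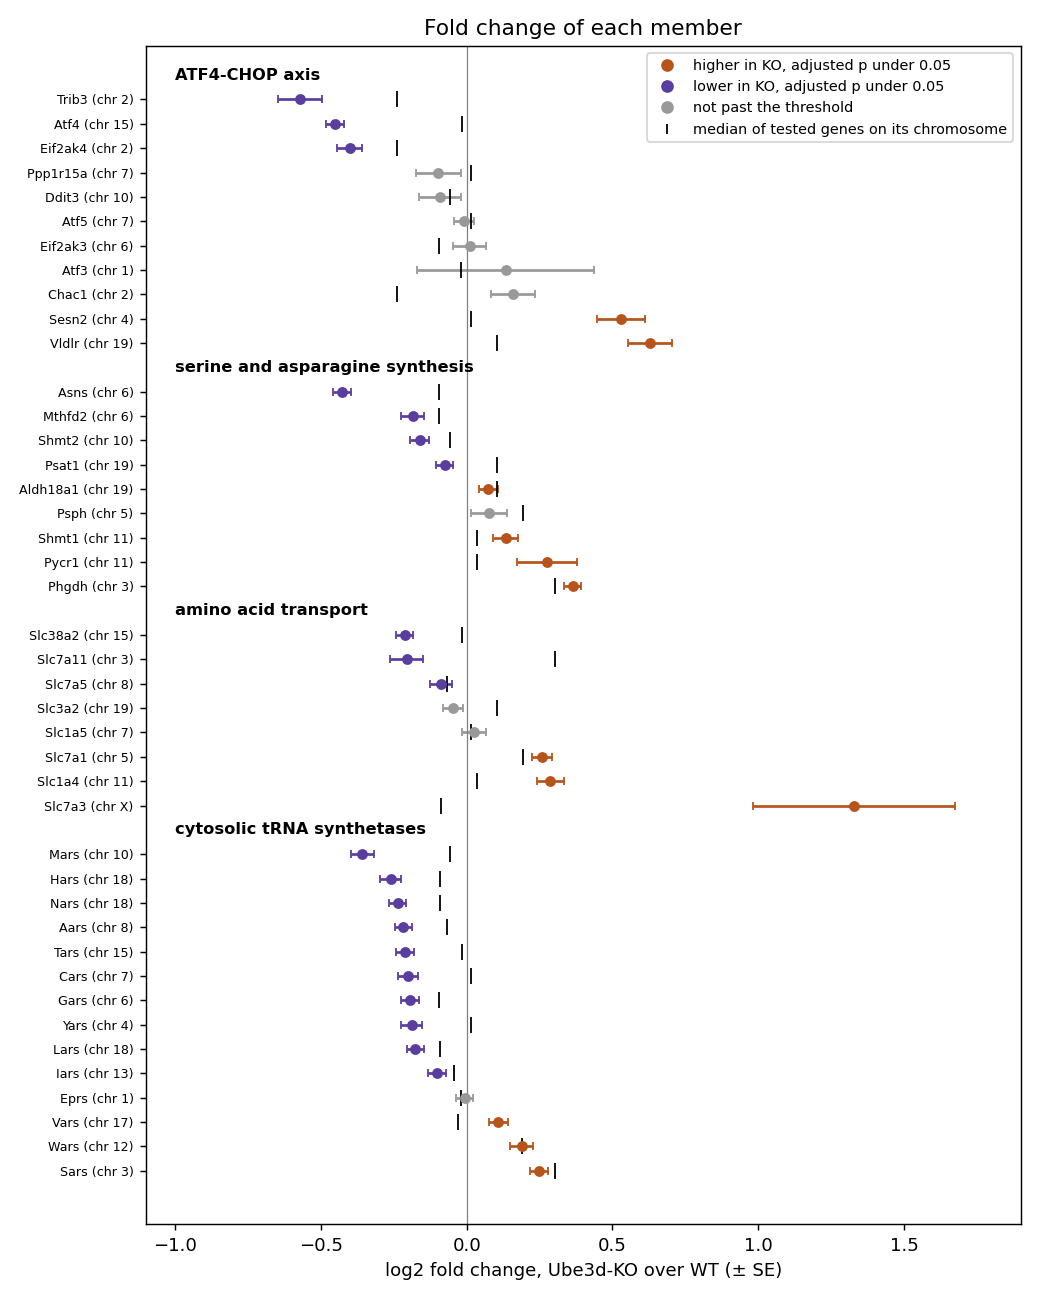
Log2 fold change of each gene, Ube3d-KO over WT, with its SE, coloured by the edgeR call, and the median of tested genes on its chromosome as a black tick. Atf4, Asns and 10 synthetases lie left of 0 and of their chromosome's tick, while Sars and Wars lie at or near the raised ticks of chromosomes 3 and 12.

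Levels were compared between the genes per exon length. In FPKM (CPM per kilobase of exon), the serine aminotransferase gene Psat1 was highest with 179 ± 3.53 in the knockout and 189 ± 5.38 in wild type, followed in wild type by Gars with 121 ± 1.37 in the knockout and 138 ± 3.29 in wild type. Nars and Atf4 came next, with Atf4 at 88.2 ± 1.83 in the knockout and 121 ± 2.02 in wild type. The synthetases ranged between 23.7 and 121 FPKM in the knockout and between 23.8 and 138 FPKM in wild type. The lowest were the stress-induced factor Atf3 with 0.467 ± 0.0941 in the knockout and 0.438 ± 0.179 in wild type and the transporter gene Slc7a3 with 0.392 ± 0.0839 in the knockout and 0.155 ± 0.0142 in wild type. Of the 42 genes, 39 had at least 10 CPM in wild type.

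**Figure D4:**
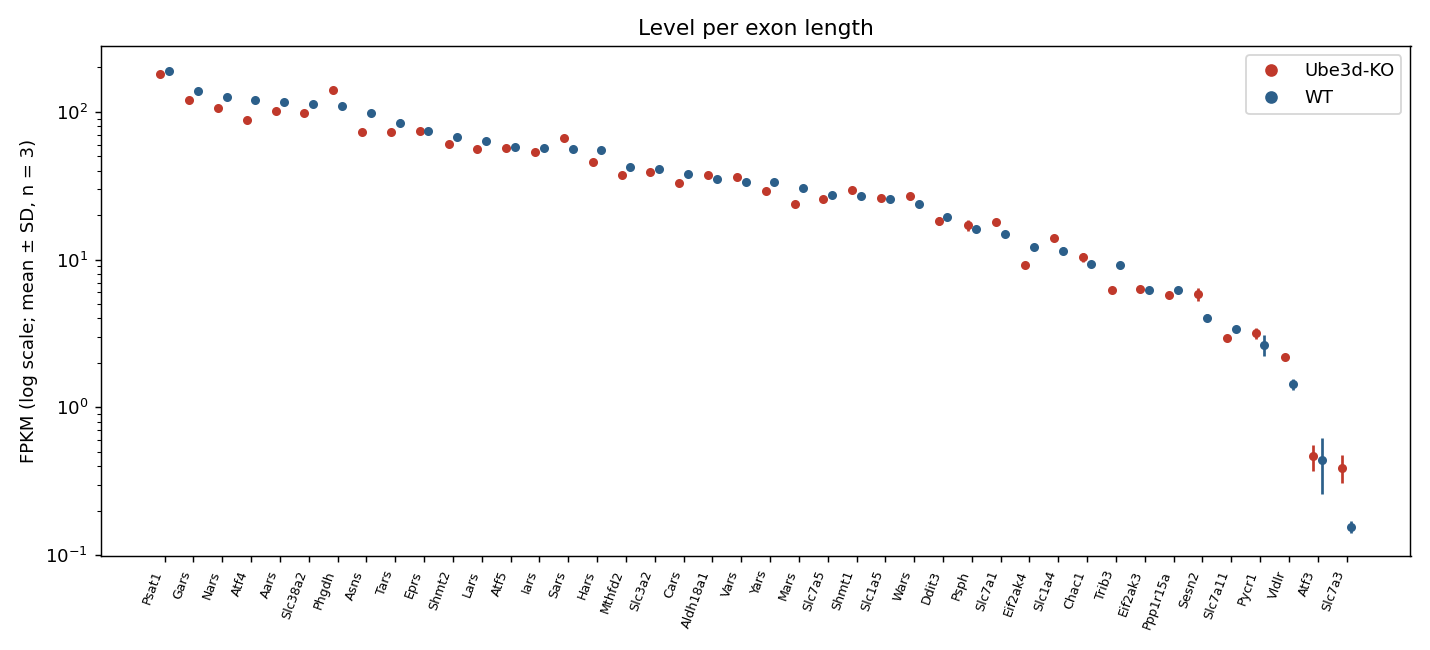
Level per exon length of the 42 genes in FPKM on a log axis, ordered by the wild-type mean, with Ube3d-KO in red to the left of WT in blue (mean ± SD, n = 3 libraries). Levels run from under 1 FPKM for Atf3 and Slc7a3 to 179 in the knockout and 189 in wild type for Psat1.

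Tested genes were shifted as a whole on some chromosomes, with medians of −0.24 on chromosome 2, 0.30 on 3, 0.19 on 5 and 0.19 on 12, and 9 of the 42 genes lie on these 4. Trib3, Chac1 and Eif2ak4 lie on chromosome 2, so the falls of Trib3 (log2 −0.57) and Eif2ak4 (log2 −0.40) stand beside a median that was itself lower. Of the 33 genes on the other chromosomes, 8 were higher and 17 were lower, and of the 12 synthetases there, 10 were lower and 1 was higher. Among all tested genes, on any chromosome, 30.3% were higher and 31.2% lower. Of the 32 genes that passed, 30 kept their sign once the median of their chromosome was subtracted, with Sars (−0.05) and Aldh18a1 (−0.03) turned. The part of the chromosome shift in the single genes was not tested.

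The rest of the charging machinery was also examined. For this and the lists that follow, the shares among all tested genes were 30.3% higher and 31.2% lower. Of the 6 cytosolic synthetases outside the 14, 4 were lower and the other 2 did not pass (median log2 −0.13). Rars, Kars and Farsb, which charge arginine, lysine and phenylalanine, were lower with log2 fold changes of −0.19, −0.16 and −0.16, and that of Farsa was −0.10. The scaffold genes of the multi-synthetase complex, Aimp1, Aimp2 and Eef1e1, did not pass, with log2 values of 0.01, 0.05 and −0.01. The 17 mitochondrial synthetases did not share a direction, with 4 higher, 4 lower and 9 not past the threshold (median log2 0.05). Wars2, on chromosome 3, was higher, with 24.9 ± 1.08 CPM in the knockout libraries and 17.1 ± 0.902 CPM in the wild-type libraries, and so was Ears2, with 12.7 ± 0.890 CPM in the knockout libraries and 8.75 ± 0.278 CPM in the wild-type libraries. Yars2 was lower, with 16.7 ± 0.404 CPM in the knockout libraries and 21.2 ± 0.424 CPM in the wild-type libraries, and so was Aars2, with 10.6 ± 0.243 CPM in the knockout libraries and 13.6 ± 0.551 CPM in the wild-type libraries.

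Of 18 other tested genes known to respond to ATF4 or to amino acid shortage, 9 were lower and 3 higher (median log2 −0.05). Cebpb, a C/EBP partner of ATF4, was lower, with 31.6 ± 1.37 CPM in the knockout libraries and 55.1 ± 3.49 CPM in the wild-type libraries (log2 −0.80, SE 0.05, adjusted p = 8.71e-23), and lies on chromosome 2. Nupr1, a small stress-induced chromatin protein gene, was lower, with 11.3 ± 1.15 CPM in the knockout libraries and 18.9 ± 1.02 CPM in the wild-type libraries (log2 −0.74, SE 0.08, adjusted p = 6.19e-13). The mitochondrial PEPCK gene Pck2 was lower too, with 38.8 ± 1.96 CPM in the knockout libraries and 48.9 ± 1.94 CPM in the wild-type libraries (log2 −0.33, SE 0.05, adjusted p = 1.64e-08). The alanine aminotransferase gene Gpt2 was higher (log2 0.29, SE 0.04, adjusted p = 1.20e-08). The hormone genes Fgf21 and Gdf15, which mark a strong response, were too low to test, with Gdf15 at 0.294 ± 0.148 CPM in the knockout libraries and 0.226 ± 0.177 CPM in the wild-type libraries. Of 15 genes listed under eIF2 and its regulators, 5 were higher and 4 lower (median log2 −0.03). The list includes Eif2a and Eif2d, which in spite of their names do not encode subunits of eIF2. The eIF2 beta subunit gene Eif2s2, on chromosome 2, was lower (log2 −0.44, SE 0.03, adjusted p = 3.38e-21). The alpha subunit gene Eif2s1, on chromosome 12, was slightly lower (log2 −0.07, SE 0.03, adjusted p = 0.0486), and the gamma subunit gene Eif2s3x did not pass (log2 −0.04). Impact, an inhibitor of GCN2, was higher, with 118 ± 3.17 CPM in the knockout libraries and 102 ± 2.87 CPM in the wild-type libraries (log2 0.20, SE 0.03, adjusted p = 8.57e-07), and so were Eif2d (log2 0.46) and Eif2a (log2 0.21). Eif2a lies on chromosome 3, whose median was 0.30, and stood at −0.09 once that was subtracted.

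Of 18 genes of the ATF6 and XBP1 arm of the unfolded protein response, which works beside PERK, 10 were higher and 4 lower (median log2 0.24). These are 55.6% higher and 22.2% lower, against 30.3% and 31.2% of all tested genes. Atf6 itself was higher, with 90.00 ± 2.65 CPM in the knockout libraries and 58.6 ± 2.05 CPM in the wild-type libraries (log2 0.62, SE 0.04, adjusted p = 2.16e-22), and the degradation genes Edem1 and Sel1l rose by 0.39 and 0.33 on the log2 scale, the last on chromosome 12. Hspa5, the chaperone BiP that is the usual marker of this arm, was lower, with 526 ± 5.36 CPM in the knockout libraries and 655 ± 7.28 CPM in the wild-type libraries (log2 −0.32, SE 0.03, adjusted p = 9.76e-16), and lies on chromosome 2. The remaining lower genes were Hsp90b1 (log2 −0.11), Calr (log2 −0.16) and Pdia4 (log2 −0.19), on chromosomes 10, 8 and 6. The 10 higher genes also held chaperone and folding genes, such as Hyou1 (log2 0.29) and Pdia6 (log2 0.25). Pdia6 lies on chromosome 12 and stood at 0.06 once the median of that chromosome was subtracted.

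**Figure D5:**
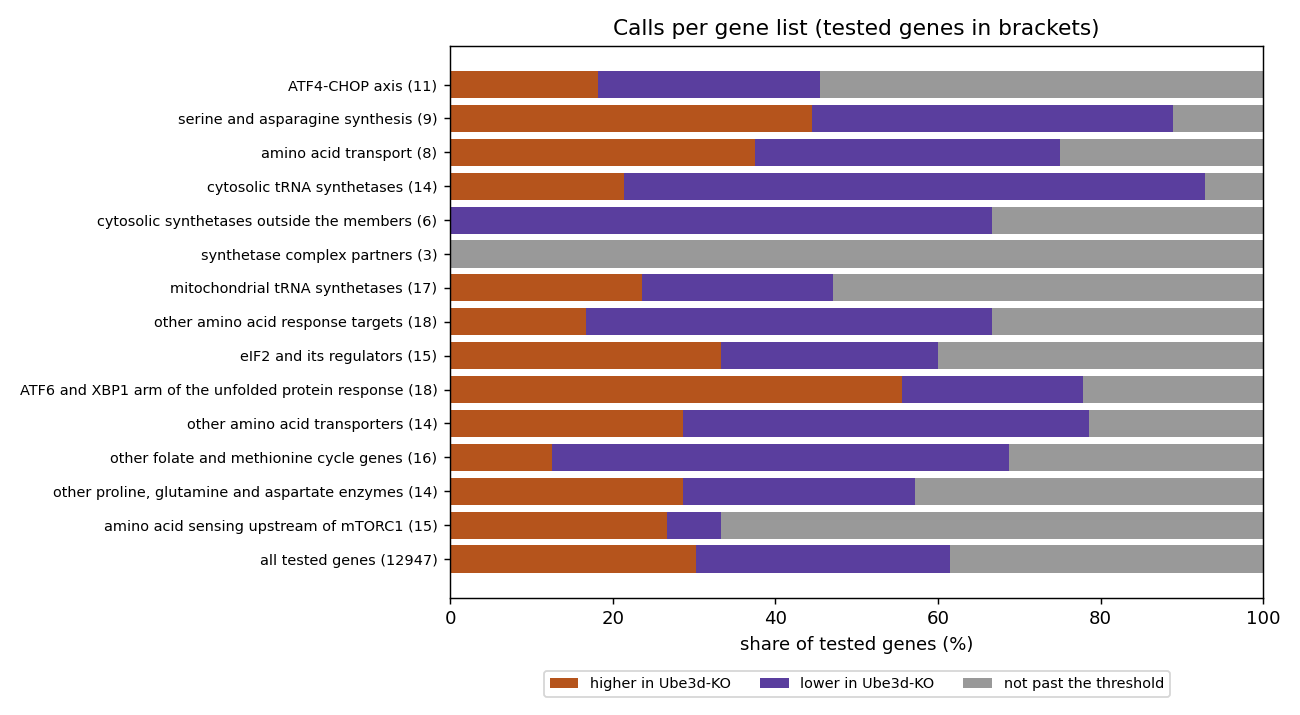
Share of tested genes (%) that were higher, lower or not past the threshold in Ube3d-KO against WT for each gene list, with the number tested in brackets and all 12947 tested genes at the bottom. The bar of the cytosolic synthetases holds 10 lower and 3 higher genes of 14, while that of all genes is divided almost evenly at 30.3% higher and 31.2% lower.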

How the data were processed

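Per the labels' protocols, stranded libraries were prepared from total RNA after removal of ribosomal RNA. The main deposited table holds raw counts of reads for each gene, with exon positions and summed exon length. The aligner STAR 2.6.1d, the counter featureCounts 1.6.3 and the builds mm10 and GRCm38 appear in the submitters' processing notes. Reads with several alignments and the strand setting are not described in the sources used here. A deposited table of counts in downstream-of-gene regions was not used, as its regions have no names.

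Groups and replicate numbers came from the sample titles. The genotypes were compared by edgeR 4.0.16 under R 4.3.3 (quasi-likelihood F test, robust, TMM, filterByExpr minimum count 10 and total 15) on all genes, two-sided, with Benjamini-Hochberg adjustment over 12947 genes and calls at 0.05. Each SE was taken as |log2 fold change| / √F. Common biological variation was 3.02%. Alternatives were RLE factors, other filters, DESeq2 1.42.0, limma-voom 3.58.1, a replicate block, Rn45s left out, 4 chromosomes left out and each library left out. On simulated counts for this comparison, 69.4% of 49 genes changed by 0.3 log2 and 100% of 48 changed by 2 log2 were called, with 14 false calls among 12823 genes. The simulation changed only 48 to 50 genes at each size, whereas 61.4% of tested genes passed in the data. The adjusted threshold therefore differs, and these shares need not hold for the data.

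The genes and lists were chosen with earlier results of these data known. All 42 genes are named, and of each other list up to 4 with the smallest adjusted p, of which 1 gene is not reported here; others were named after their values were seen. Promoters came from the RefSeq table by symbol, and for 1 gene by older symbol and position. Python 3.11.15, pandas 2.3.3 and matplotlib 3.10.9 were used.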

Additional observations from a re-analysis of the deposited data

How the results depend on the processing

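Of the 42 genes, 36 kept their side of the threshold in each of 14 alternatives that tested them, and no called gene changed direction. The others were Aldh18a1, Psat1, Slc7a5, Pycr1, Vars and Chac1. The 10 falling synthetases were called in every alternative. The serine and asparagine synthesis genes called higher numbered 2 with DESeq2, against 4 with edgeR, and 2 to 4 with each library left out. With chromosomes 2, 3, 5 and 12 left out, which removes 9 of the genes, the counts became 1 synthetase higher, 1 gene of the ATF4-CHOP axis lower and 1 transporter lower. With each library left out, 9 to 13 of the genes were higher and 18 to 20 lower. With the replicate number as a block, 11 were higher and 20 lower. Pairing was checked on log2 levels after the mean of each gene in its own genotype was subtracted. On these deviations, same-numbered libraries of the genotypes correlated at −0.05, −0.03 and −0.06, and differently numbered ones at 0.001 to 0.05. The numbers thus showed no sign of pairing, although 3 libraries of each genotype allow only a weak check. The block is only an alternative. Over all tested genes it called 3840 higher and 3976 lower. Depth limits Atf3 and Slc7a3, both near or under 1 CPM.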

Other observations

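Of 14 tested amino acid carriers outside the 42 genes, 4 were higher and 7 lower (median log2 −0.24). The SNAT4 gene Slc38a4 was at 139 ± 1.11 CPM in the knockout libraries and 226 ± 6.49 CPM in the wild-type libraries (log2 −0.70, SE 0.03, adjusted p = 9.38e-32) and the glutamate transporter gene Slc1a3 at 12.01 ± 1.45 CPM in the knockout libraries and 26.6 ± 1.70 CPM in the wild-type libraries (log2 −1.14, SE 0.07, adjusted p = 1.11e-22). The taurine transporter gene Slc6a6 was lower too (log2 −0.32, SE 0.03, adjusted p = 1.96e-15), whereas Slc38a10 was higher (log2 0.29, SE 0.03, adjusted p = 2.71e-12). The falls of Slc38a4 and Slc1a3 were larger than those of all 42 genes.

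Of 16 tested folate and methionine cycle genes, 2 were higher and 9 lower (median log2 −0.10). Ahcy, which clears S-adenosylhomocysteine and lies on chromosome 2, was at 85.1 ± 1.96 CPM in the knockout libraries and 145 ± 2.94 CPM in the wild-type libraries (log2 −0.77, SE 0.03, adjusted p = 3.99e-31). The mitochondrial folate gene Aldh1l2 was at 84.2 ± 0.770 CPM in the knockout libraries and 112 ± 1.81 CPM in the wild-type libraries (log2 −0.41, SE 0.04, adjusted p = 1.50e-16). The glycine decarboxylase gene Gldc was at 1.19 ± 0.219 CPM in the knockout libraries and 2.81 ± 0.539 CPM in the wild-type libraries (log2 −1.23, SE 0.21, adjusted p = 6.69e-07), and the methionine synthase gene Mtr was lower as well (log2 −0.28). Among 14 enzymes of proline, glutamine and aspartate metabolism, 4 were higher and 4 lower (median log2 −0.05). The reductase gene Pycrl was higher by 0.38 on the log2 scale and the glutamine synthetase gene Glul by 0.19, while the ornithine aminotransferase gene Oat was lower (log2 −0.25). Of 15 tested genes of amino acid sensing upstream of mTORC1, 4 were higher and 1 lower (median log2 0.02). The GATOR1 subunit genes Nprl3 and Nprl2 were higher, with 31.7 ± 0.849 CPM in the knockout libraries and 22.4 ± 1.53 CPM in the wild-type libraries for Nprl3 (log2 0.50, SE 0.06, adjusted p = 3.42e-11) and 7.12 ± 0.416 CPM in the knockout libraries and 5.27 ± 0.716 CPM in the wild-type libraries for Nprl2 (log2 0.42, SE 0.12, adjusted p = 0.00127). Gatsl2, which encodes CASTOR2, a relative of the arginine sensor CASTOR1, was higher (log2 0.25). It lies on chromosome 5 and stood at 0.06 once the median of that chromosome was subtracted. The CASTOR1 gene, listed as Gatsl3, was too low to test. The GTPase gene Rragc was lower (log2 −0.20).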
